A study of Mus musculus with 4 samples.

Results

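Cycling double-positive (DP) thymocytes are cells that hold transcripts of both coreceptors, CD4 and CD8, together with transcripts of the cell-division machinery. They were selected from the counts of unique molecular identifiers (UMIs), each of which marks 1 captured mRNA molecule. A cell entered with at least 1 UMI of Cd4, at least 1 UMI of Cd8a or Cd8b1, and 3 or more UMIs per 10000 summed over Mki67, Top2a, Pclaf, Rrm2, Tyms and Birc5. Kept cells had over 500 genes and under 10% mitochondrial UMIs, and in T-ALL#2 at least 3416 UMIs. This gate held 1757 of the 11968 kept cells of 3 thymus libraries, out of 17544 kept cells in the 4 libraries of the series. It held 646 of 4220 kept cells of the wild type library (WT), 1005 of 5773 cells of T-ALL#1 and 106 of 1975 cells of T-ALL#2. The values of these 9 genes chose the cells, so they are described below and were left out of every count of genes.

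The WT thymus came from 1 FVB/N mouse of 6 weeks without a transgene. T-ALL#1 and T-ALL#2 came from 2 FVB/N mice of 3 months with T-ALL, a leukemia of immature T cells, both of the genotype Tal1/Lmo2, in which the proximal Lck promoter drives both oncogenes in developing T cells. The 4th library, of a preleukemic Tal1/Lmo2 mouse of 6 weeks and the same strain, enters no comparison here. All cells of a thymus that excluded the dye 7-AAD were sorted, with no sort on CD4 or CD8, so a leukemic thymus can also hold thymocytes that are not leukemic. Genotype, age and mouse differ together between WT and each leukemia and cannot be told apart. By the sex-linked transcripts given below, sex also differed between WT and T-ALL#2. The version of the counting software Cell Ranger differed there too (3.0.2 and 4). Neither can be told apart from genotype in that comparison. WT is 1 library, so no test between groups was possible, cells were not used as replicates, and all intervals below are exact 95% intervals that cover counting error only. The libraries also differed in depth, and the labels do not say which used which version of the 3′ chemistry. Values given in threes are those of WT, T-ALL#1 and T-ALL#2, and pairs for the leukemias give T-ALL#1 before T-ALL#2.

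The sex-linked transcripts went against 1 label. The WT mouse is labelled male, yet its cycling DP cells held 9699 UMIs of Xist, the RNA of the inactive X chromosome, and 0 UMIs of 4 Y-linked genes. Those of T-ALL#1, labelled female, held 31040 UMIs of Xist and 0 of the Y-linked genes, and those of T-ALL#2, labelled male, held 0 and 187. The kept cells of WT shared 9 barcodes with T-ALL#1 and 0 with T-ALL#2, while T-ALL#1 shared 3 with T-ALL#2.

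In the normal thymus, a thymocyte that has rearranged its T-cell receptor beta chain passes beta-selection, divides quickly as a blast, turns on CD4 and CD8, and then leaves the cell cycle as a small DP cell in which the RAG recombinase rearranges the alpha chain. Notch1 signalling drives the stages before this point, through targets such as Hes1, Dtx1 and Il2ra, and is turned down as cells become double positive. Activated NOTCH1 is among the most frequent lesions of T-ALL, and TAL1 is a basic helix-loop-helix factor that binds E proteins, the factors that otherwise run much of the DP program.

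The cells that passed the gate differed in how far they lay above its threshold. In WT their median was 26.7 UMIs of the 6 cycling genes per 10000, with quartiles of 5.93 and 67.6, against medians of 14.2 (T-ALL#1) and 17.3 (T-ALL#2). In WT, 220 of the 646 cells (34.1%) met the threshold with a lone UMI of the cycling genes, and these cells had a median of 2072.5 UMIs in all. In T-ALL#1 95 of 1005 cells (9.45%) did so, and in T-ALL#2 none of 106. Depth moved with these counts, as the median cycling DP cell held 8047, 14513 and 21084 UMIs. Just inside the threshold, at 3 to under 6 per 10000, lay 162 WT cells, 312 cells of T-ALL#1 and 32 of T-ALL#2. Just outside it, above 0 and under 3 per 10000, lay 152, 578 and 132 cells.

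**Figure D1:**
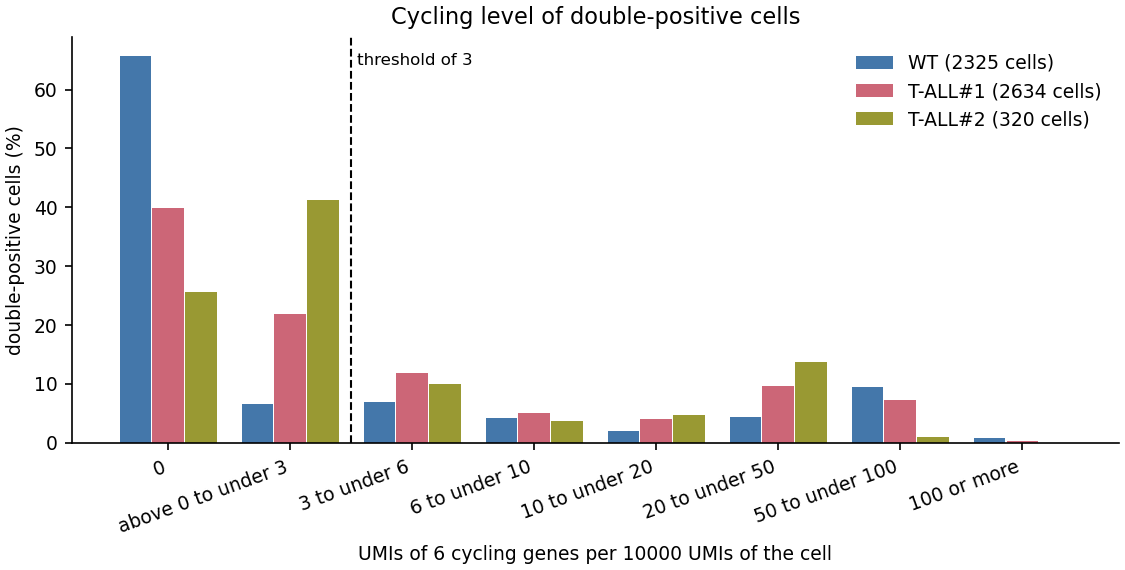
Share of DP cells (y axis, %) in bins of the summed level of the 6 cycling genes (x axis, UMIs per 10000 UMIs of the cell) for WT, T-ALL#1 and T-ALL#2, with the threshold of 3 as a dashed line. WT cells above the threshold gather at 50 to under 100 (221 cells), while those of T-ALL#2 gather at 20 to under 50 (44 cells) and only 3 lie at 50 or more.

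The coreceptor part of the gate was met narrowly in the leukemias. Exactly 1 UMI of Cd4 was found in 26% of the cycling DP cells of WT, in 56.8% of those of T-ALL#1 and in 73.6% of those of T-ALL#2. Over all kept cells, the level of Cd4 was 342, 69.2 and 13.8 CPM (counts per 1000000 UMIs). Of the DP markers that the gate does not use, Rag1, which encodes a subunit of the recombinase, stood at 403 CPM, 146 CPM and 48.8 CPM in cycling DP cells of WT, T-ALL#1 and T-ALL#2. Cells of either leukemia that pass the gate are therefore called by the gate, and not taken as a DP population apart from other leukemic cells.

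That point could be measured against the cycling cells of the same library outside the DP gate, a comparison that was chosen after the values were seen. Of 7382 genes, 367 (4.97%) differed at least 2-fold in WT between cycling cells inside and outside the gate, with the counting interval of the ratio on 1 side of 1. In T-ALL#1 this held for 50 genes (0.677%) and in T-ALL#2 for 62 genes (0.840%). In WT, Hes1 stood at 1.05 CPM inside the gate and 24.5 CPM outside, and Il2ra at 3.31 and 52.7 CPM. In T-ALL#1, Hes1 stood at 160 CPM inside and 130 CPM outside, and Il2ra at 204 and 119 CPM. In T-ALL#2 the values were 96.3 and 98.6 CPM for Hes1, and 182 and 182 CPM for Il2ra. Rag1 was higher inside the gate in all 3 libraries, 3.57-fold, 2.24-fold and 2.38-fold. Cycling cells inside and outside the gate thus differed by Notch target levels in WT and by far less in either leukemia.

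**Figure D2:**
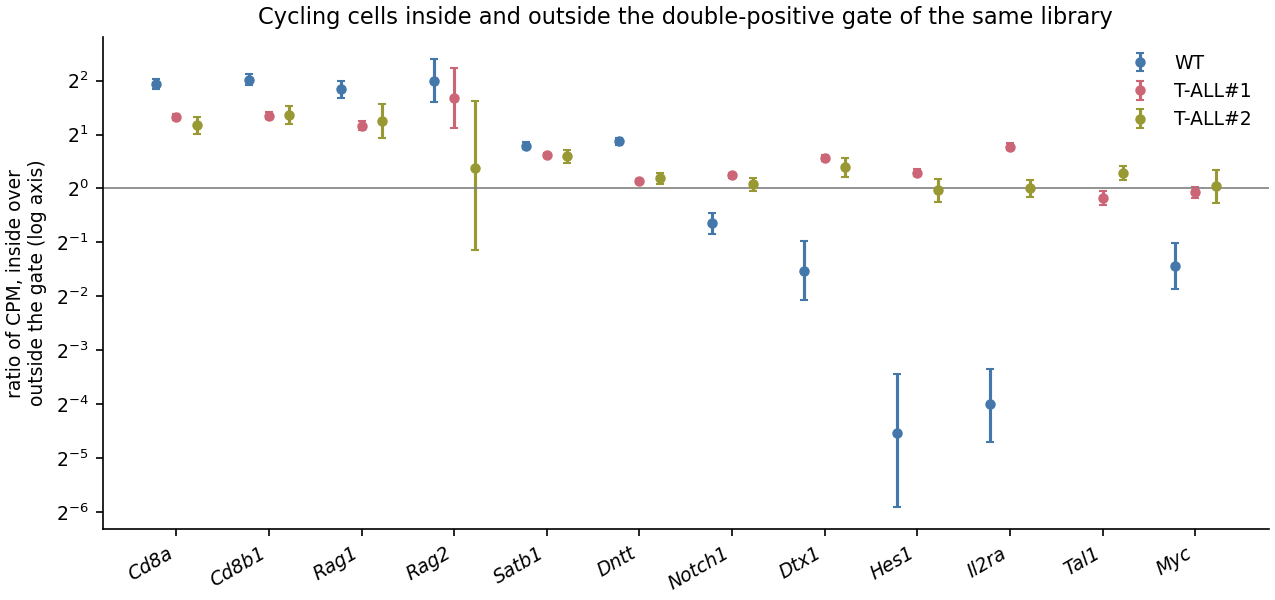
Ratio of the summed level in cycling cells inside the DP gate to that in cycling cells outside it (y axis, log scale) for 12 genes in each library, with exact 95% counting intervals. The WT points for Hes1 and Il2ra lie far below 1 (ratios of 0.0430 and 0.0628), while those of the leukemias lie between 0.977 and 1.71. Tal1 has no WT point because WT held no UMI of it.

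Markers of other cell types were summed inside the gate. The B cell marker Ms4a1 had 0 UMIs in cycling DP cells of WT, and the summed level of the 5 B markers was 9.02, 0.853 and 0 CPM, with 2, 1 and 5 of the genes at 0. The 7 myeloid markers summed to between 66.5 and 126 CPM, mostly Cst3, with 2, 2 and 4 genes at 0. The summed level was at most 4.86 CPM for 3 natural killer T cell markers, 1.5 CPM for 4 globin genes and 5.41 CPM for 4 epithelial genes. The 4 gamma-delta markers summed to 447, 22.5 and 183 CPM. Nearly all of this was Trdc in WT, at 442 CPM in 274 of the 646 cells, while T-ALL#1 held no Trdc but Tcrg-C1 at 16.7 CPM, and T-ALL#2 held Trdc at 105 CPM and Cd163l1 at 63.8 CPM. None of the 10, 7 and 6 cells that carried B or myeloid markers and no Cd3 transcript passed the whole gate, which at these numbers allows shares of up to 30.8%, 41.0% and 45.9% (exact intervals). Of these cells 1, 0 and 0 passed the DP part of the gate and 2, 1 and 2 passed the cycling threshold. In T-ALL#2, whose deposited matrix also holds empty droplets, barcodes with 1 to 100 UMIs held 1.53 UMIs on average. Their pooled RNA contained Cd4 at 10.5 CPM and the 6 cycling genes together at 1000.04 CPM, against 66.9 and 2128 CPM in the cycling DP cells.

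The share of DP cells that were cycling was 27.8% in WT (interval 26 to 29.7%), 38.2% in T-ALL#1 (36.3 to 40.0%) and 33.1% in T-ALL#2 (28.0 to 38.6%). The T-ALL#1 interval lay above that of WT, and the interval of T-ALL#2 overlapped both. With every cell thinned to 2000 UMIs before gating, the shares were 24.5% (270 of 1102 cells), 30.7% (361 of 1175) and 20.3% (13 of 64), and T-ALL#2 stood below WT, with overlapping intervals (11.3 to 32.2% and 22 to 27.2%). Thinning left out 991 shallower WT cells, 94 cells of T-ALL#1 and none of T-ALL#2. With at least 2 UMIs of the cycling genes required, the shares were 18.3%, 34.5% and 33.1%. As a share of all kept cells, cycling DP cells made up 15.3% of WT, 17.4% of T-ALL#1 and 5.37% of T-ALL#2. Of all cells past the cycling threshold, 71.1%, 37.5% and 10.7% were DP, so most cycling cells of both leukemias lacked a UMI of Cd4, of Cd8 or of both.

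Levels were compared by summing the UMIs of each gene over the cycling DP cells of a library, which gave 6648883, 15235257 and 2211140 UMIs. A gene was called higher or lower when its ratio to WT reached 2-fold with the counting interval on 1 side of 1, among 7382 genes with a mean of at least 10 CPM over the 3 libraries. In T-ALL#1, 357 genes were higher (4.84%) and 426 lower (5.77%) than in WT. In T-ALL#2, 369 were higher (5%) and 1578 lower (21.4%). Both comparisons share the WT cells, and 221 genes (2.99%) were higher and 364 (4.93%) lower in both. The balance depends on the scaling. TMM factors, which centre the bulk of the genes, moved all log2 ratios up by 0.16 (T-ALL#1) and 0.40 (T-ALL#2), and then 497 genes were higher and 284 lower in T-ALL#1, 757 higher and 774 lower in T-ALL#2, and 384 higher and 217 lower in both. Over the genes tested the median log2 ratio was -0.11 (T-ALL#1) and -0.41 (T-ALL#2), and list medians below are to be read against these values. Ribosomal protein genes took 173691 CPM of the WT sum, 232929 CPM of that of T-ALL#1 and 318836 CPM of that of T-ALL#2, and their part in the shift was not tested.

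Most tested genes of the Notch pathway were higher than in WT in both leukemias. Of 12 listed genes 9 were tested, of which 7 were higher in T-ALL#1 and 6 were higher in T-ALL#2, and none was lower in either. These counts stand beside 4.84% and 5% of all genes. The median log2 ratio of the list was 2.44 (T-ALL#1) and 1.81 (T-ALL#2). The TMM factors left these counts as they were, and with cells thinned to 2000 UMIs 7 were higher in T-ALL#1 and 3 were higher in T-ALL#2.

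Hes1 (chr16:30064384-30067796), a transcriptional repressor and direct Notch target, stood at 1.05 CPM in WT (7 UMIs), 160 CPM in T-ALL#1 (2433 UMIs) and 96.3 CPM in T-ALL#2 (213 UMIs). It was 152-fold higher in T-ALL#1 (interval 73.5 to 378) and 91.5-fold higher in T-ALL#2 (43.6 to 230). A UMI of Hes1 was found in 0.774% of the WT cells, 68.5% of those of T-ALL#1 and 69.8% of those of T-ALL#2. After thinning to 2000 UMIs these shares were 0%, 29.9% and 16.0%, so the gap to WT remained at equal depth. Both leukemias lay far above WT on each of these scales.

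Il2ra (chr2:11642807-11693193), the CD25 chain of the interleukin-2 receptor that marks thymocytes before beta-selection, stood at 3.31, 204 and 182 CPM in WT, T-ALL#1 and T-ALL#2. The ratios to WT were 61.7 (40.6 to 98.5) and 55.1 (35.9 to 88.9). Dtx1, an E3 ligase induced by Notch, stood at 7.67, 262 and 132 CPM, with ratios of 34.2 and 17.2. Heyl, a repressor of the Hes family, had 1 UMI in WT, 405 in T-ALL#1 and 34 in the other leukemia, which gives ratios of 177 (31.5 to 6998) and 102 (17.2 to 4155). All 3 targets lay far above WT in both leukemias, and the level intervals of the leukemias overlapped for Il2ra (197 to 211 and 165 to 201 CPM).

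The receptors differed less from WT than Hes1, Il2ra, Dtx1 and Heyl did. Notch1 (chr2:26457903-26516663) stood at 75.2, 409 and 264 CPM, a ratio of 5.44 (4.97 to 5.97) in T-ALL#1 and 3.51 (3.11 to 3.97) in T-ALL#2. Notch3 stood at 7.82, 37.5 and 19.4 CPM. Rbpj and Maml1, the DNA-binding partner and the coactivator of the Notch intracellular domain, stayed within 2-fold of WT in both leukemias, with Rbpj at 30.2, 37.2 and 33.0 CPM. Hes5, Hey1 and Nrarp were under the level for testing, and Hey1 had 0 UMIs in all 3 libraries.

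Ptcra, the pre-T-cell receptor alpha chain that pairs with a new beta chain at beta-selection, split the leukemias. It stood at 64.8, 170 and 36.6 CPM, with ratios of 2.63 (2.37 to 2.92) and 0.565 (0.440 to 0.718). Only the T-ALL#1 ratio was past the 2-fold rule, and T-ALL#2 stayed within 2-fold of WT. In empty droplets of T-ALL#2 the levels were 95.3 CPM for Hes1, 133 CPM for Il2ra, 262 CPM for Notch1 and 140 CPM for Dtx1, beside 96.3, 182, 264 and 132 CPM in its cycling DP cells. The part of free RNA in the T-ALL#2 levels was not tested.

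Promoters of the Notch list were searched for TGGGAA, the core bound by the Notch partner RBPJ, on both strands in the 250 bases before the start site (RefSeq, GRCm38.p6). The letters GGGAA within it are also the core bound by Ikaros. Of the 9 genes of the list with a promoter entry, 3 held it, namely Hes5, Ptcra and Rbpj, against 24.1% of all 27025 genes, and Hes1 and Heyl had no entry. The sites of Ptcra, the gene that split the leukemias, are shown with the motif in capitals, 5′ to 3′ on the strand of the gene, which is the minus strand.
Ptcra, chr17:46763779-46763808: cccagaaagcacTGGGAActagggggtaga
Ptcra, chr17:46763727-46763756: gggtctgtgatcTGGGAAgcagtgtagtag
A match of these letters is a description and says nothing of binding.

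**Figure D3:**
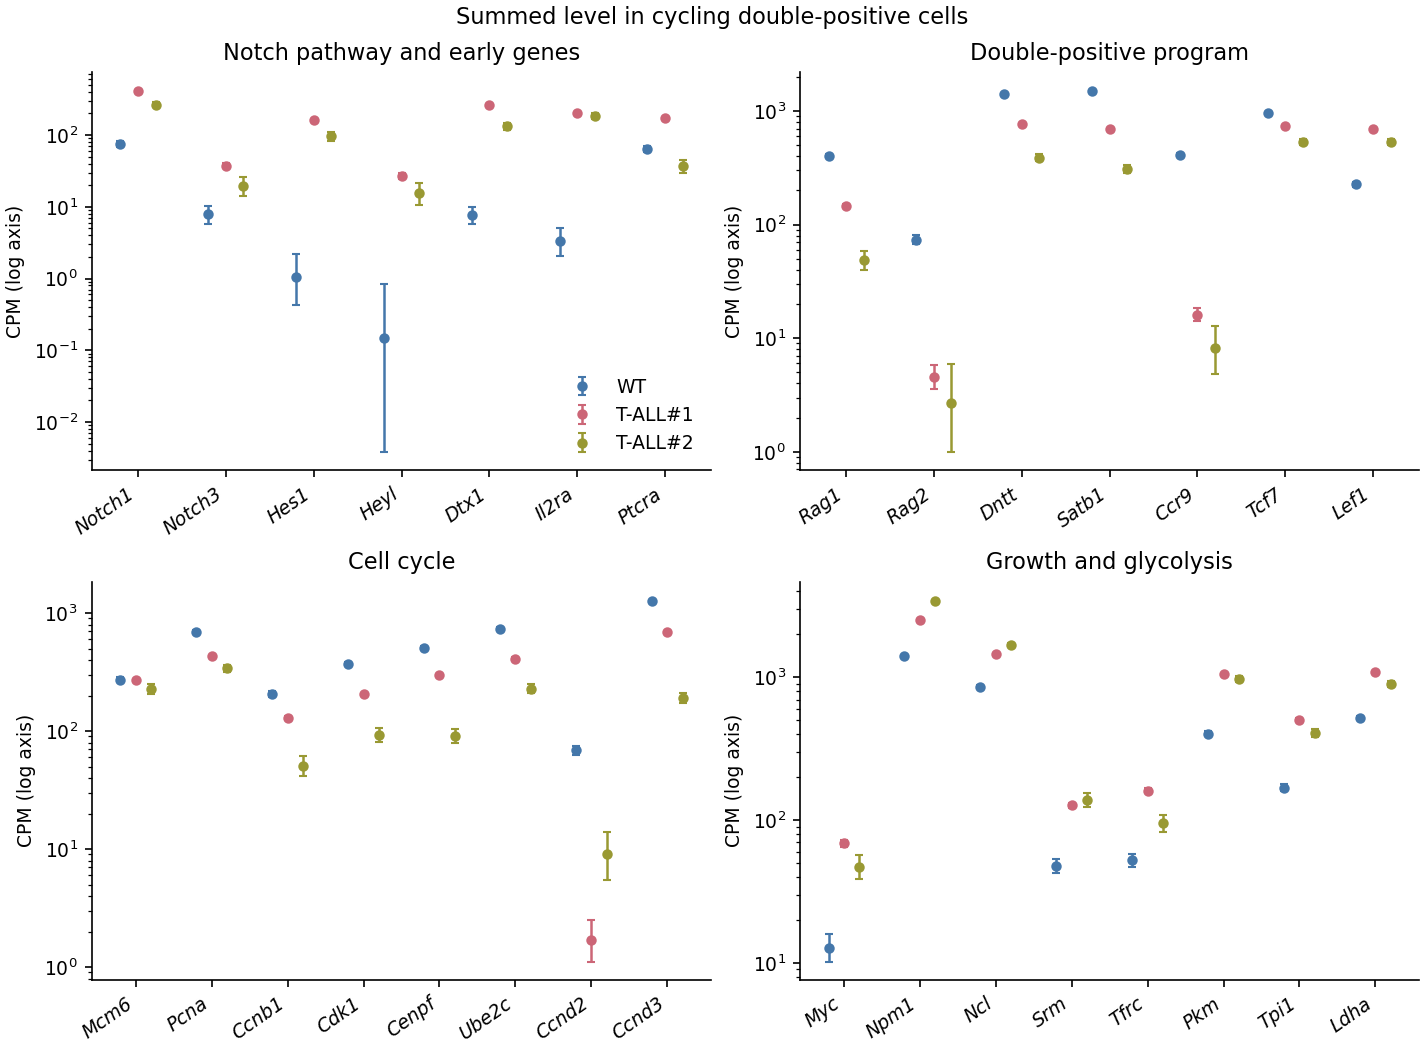
Summed level (y axis, CPM on a log scale) of named genes in cycling DP cells of WT, T-ALL#1 and T-ALL#2, with exact 95% Poisson intervals, in 4 groups of genes. Hes1, Heyl, Dtx1 and Il2ra lie above WT in both leukemias, whereas Rag1, Rag2 and Ccr9 lie below it.

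Most other genes of the stage before beta-selection had few or no UMIs. Of 10 listed genes of the DN3 stage, 3 reached the level for testing, and all 3 (Il2ra, Hes1 and Notch3) are also in the Notch list. Erg had 0 UMIs in all 3 libraries, and Bcl11a, Kit and Mef2c had 6, 7 and 19 UMIs in WT and 0 in both leukemias. Hhex had 1 UMI in each library and Lyl1 had 1, 18 and 1. Cells with UMIs of both a Notch target and Rag1 were counted. Hes1 and Rag1 were both found in 4 of the 646 WT cells (0.619%), 499 of the 1005 cells of T-ALL#1 (49.7%) and 37 of the 106 cells of T-ALL#2 (34.9%). Il2ra and Rag1 were both found in 12, 545 and 45 cells. Empty droplets of T-ALL#2 held Hes1 at 95.3 CPM, Il2ra at 133 CPM and Rag1 at 16.0 CPM, and the depth per cell was lowest in WT. The part of free RNA and of depth in these shares was not tested, and they are not read as expression of both genes in a cell.

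Part of the DP program was lower in the leukemias. All 16 listed genes were tested, of which 5 were lower in T-ALL#1 and 10 were lower in T-ALL#2, beside 5.77% and 21.4% of all genes. With the TMM factors 4 and 9 were lower. The 5 that were lower in both were Rag1, Rag2, Satb1, Ccr9 and Bcl2l1, and Lef1 alone was higher in both. The median log2 ratio was -0.80 (T-ALL#1) and -1.57 (T-ALL#2). With cells thinned to 2000 UMIs before gating, 3 of these genes were lower and 3 higher in T-ALL#1, 5 were lower and 1 higher in T-ALL#2, and the medians were -0.37 and -0.55.

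Rag1 (chr2:101638282-101649501) was 2.76-fold lower (T-ALL#1) and 8.25-fold lower (T-ALL#2). Its neighbour Rag2 (chr2:101624718-101632529), the second subunit of the recombinase, stood at 73.7, 4.59 and 2.71 CPM, which is 16.0-fold and 27.2-fold lower. Rag2 rested on 70 UMIs (T-ALL#1) and 6 (T-ALL#2). In both leukemias Rag2 was further below WT than Rag1 in the same cells, though its T-ALL#2 value rests on few UMIs.

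Ccr9, a chemokine receptor of DP cells, stood at 414, 16.1 and 8.14 CPM, which is 25.6-fold and 50.8-fold lower. Satb1, a chromatin organizer, stood at 1490, 694 and 308 CPM. Dntt, the terminal transferase that adds bases at receptor joints, stood at 1401, 773 and 389 CPM. It was past the 2-fold rule in T-ALL#2 (3.60-fold lower) and not in T-ALL#1 (1.81-fold lower). For each of these 3 genes WT was highest and T-ALL#2 lowest, with no overlap of intervals.

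Lef1 (chr3:131110471-131224356), an HMG-box factor of early and DP thymocytes, went the other way at 226, 701 and 533 CPM, with ratios of 3.10 (2.94 to 3.27) and 2.36 (2.18 to 2.54). Its relative Tcf7 stood at 956, 736 and 533 CPM, within 2-fold of WT in both leukemias. Ets1, an ETS-family factor of T cells, also stood within 2-fold, at 454, 571 and 428 CPM.

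**Figure D4:**
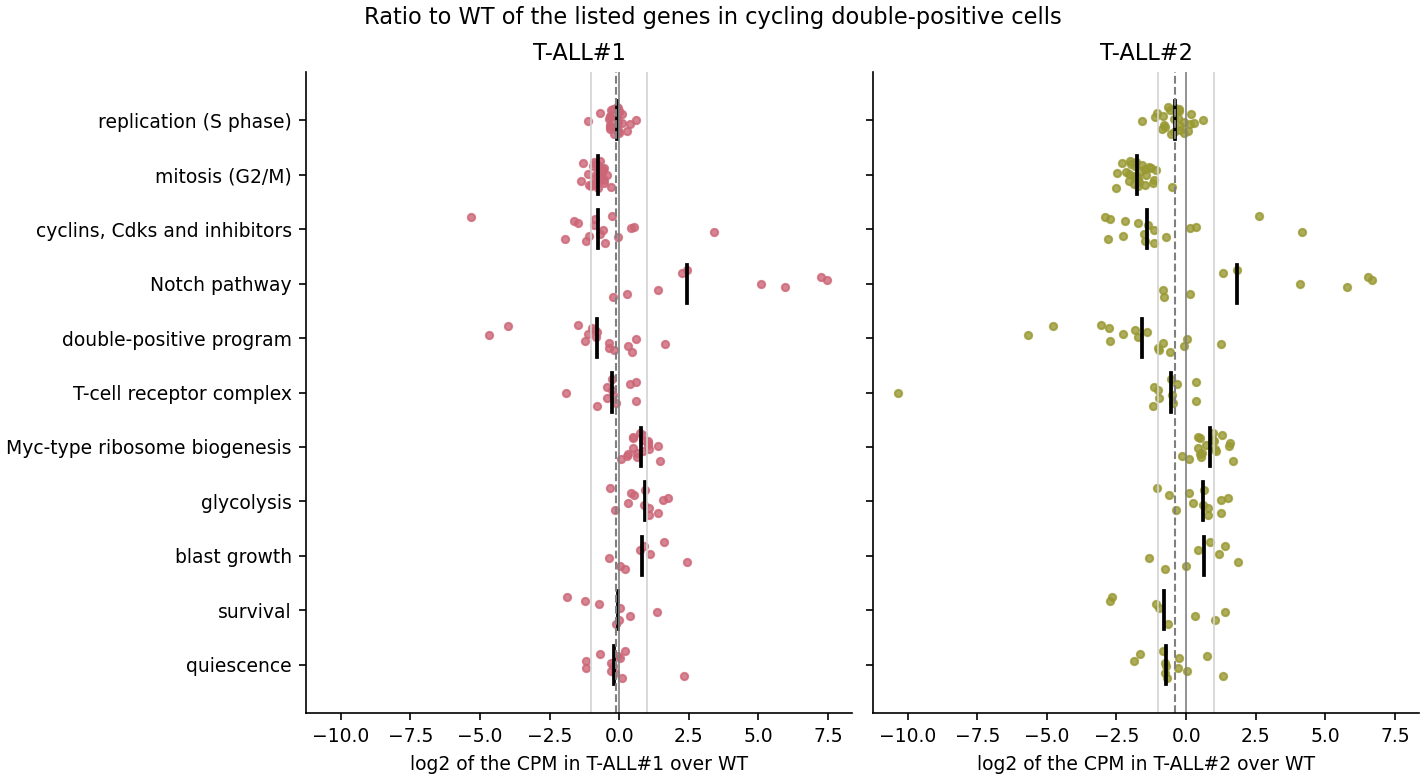
Log2 ratio of the summed level in cycling DP cells to WT (x axis) for the tested genes of 11 lists, in T-ALL#1 (left) and T-ALL#2 (right), on a common axis. Each point is a gene, black bars are list medians, the dashed line is the median of all genes tested (-0.11 and -0.41), and light lines mark 2-fold. Replication genes centre on the dashed line, mitosis genes lie below it, and Notch genes spread far above it.

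The cell-cycle genes did not move as a block. Of 26 replication genes, 1 was lower in T-ALL#1 (Slbp) and 3 were lower in T-ALL#2 (Slbp, Pcna and Cdc45), and none was higher. The median log2 ratio of this list was -0.07 and -0.38, close to the medians over all genes. Mcm6, a subunit of the replicative helicase, stood at 273, 270 and 227 CPM, and Dut, which keeps uracil out of DNA, at 954, 1263 and 1046 CPM. Of 28 mitosis genes, 5 were lower in T-ALL#1 and 27 were lower in T-ALL#2, beside 5.77% and 21.4% of all genes, with medians of -0.77 and -1.75. With the TMM factors 2 and 22 were lower, with medians of -0.60 and -1.35. The 5 were Ccna2, Kif11, Nusap1, Tacc3 and Ndc80, and Smc4 was the gene within 2-fold of WT in T-ALL#2.

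Ccna2, the cyclin of S phase and G2, stood at 332, 134 and 66.9 CPM. Cenpf, a kinetochore protein made in G2, stood at 509, 297 and 91.4 CPM, which is 1.71-fold and 5.57-fold lower. Cdk1, the kinase that starts mitosis, stood at 371, 205 and 93.2 CPM. Each of these was highest in WT and lowest in T-ALL#2. The 6 genes of the gate chose the cells, so their levels are a description only, from Mki67 at 999, 700 and 259 CPM to Tyms at 407, 299 and 276 CPM.

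The balance of mitosis and replication UMIs in the gated cells moved with this result. Cells with more UMIs of the mitosis list than of the replication list made up 52.9% of the WT cells, 38.2% of those of T-ALL#1 and 36.8% of those of T-ALL#2. Among these mitosis-leaning cells alone (342, 384 and 39 cells), Ccnb1, the cyclin partner of Cdk1, stood at 352, 291 and 116 CPM and Cenpf at 901, 717 and 207 CPM. There the mitosis list had a median log2 ratio of -0.51 (T-ALL#1) and -1.34 (T-ALL#2), with 2 and 24 genes lower. Both medians were nearer to 0 than over the whole gate, but the mitosis list itself chose these cells, so this is a description. In low-cycling DP cells 55.6%, 47.3% and 65.9% also leaned to mitosis by this rule, so it is not read as a cell-cycle phase. With cells thinned to 2000 UMIs and gated again, 24 mitosis genes were lower in T-ALL#1 and 6 were lower in T-ALL#2, with medians of -1.72 and -0.52 beside -0.12 and 0.68 over all genes. The thinned T-ALL#2 gate held 13 cells, and the leukemia with the larger mitosis difference thus depends on this choice.

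Promoters of the mitosis list and of the 6 cycling gate genes were searched for TTTGAA, a form of the CHR element (cell cycle genes homology region) through which the DREAM complex and MYB act, in the same windows and on both strands. It overlaps CTTTGAA, a form of the Tcf/Lef motif. Of the 30 genes with a promoter entry, 11 held it (36.7%), against 18.3% of all genes. The sites nearest to the start in Top2a, Mki67, Cdk1 and Cdc20 are shown because these genes define the gate or the mitosis list. All 4 genes lie on the minus strand, the sequences run 5′ to 3′ along that strand, and capitals mark the motif or its reverse complement.
Top2a, chr11:99024195-99024224: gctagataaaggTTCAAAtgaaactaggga
Mki67, chr7:135716460-135716489: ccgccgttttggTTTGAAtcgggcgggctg
Cdk1, chr10:69352913-69352939: taccgcggcgagTTTGAAactgctggc
Cdc20, chr4:118437344-118437373: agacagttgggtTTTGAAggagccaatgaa
The motif begins 23 bases before the start of Top2a, 98 before Mki67, 15 before Cdk1 and 18 before Cdc20. It was found upstream of genes that were lower and of genes that stayed within 2-fold in T-ALL#1.

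Among cyclins, kinases and inhibitors, 16 of 18 genes were tested, of which 6 were lower in T-ALL#1 and 11 were lower in T-ALL#2, beside the same 5.77% and 21.4%. The counts were 5 and 8 with the TMM factors and 4 and 2, of 11 tested, with thinned cells. The D cyclins, which couple growth signals to the cell cycle, differed in direction in T-ALL#2. Ccnd3, the D cyclin of dividing DP blasts, stood at 1269, 697 and 191 CPM, which is 1.82-fold and 6.65-fold lower. Ccnd2 stood at 68.7, 1.71 and 9.05 CPM, which is 40.3-fold and 7.60-fold lower, and Ccnd1 at 4.51, 3.81 and 27.6 CPM. The Ccnd2 values rested on 457, 26 and 20 UMIs, found in 67, 9 and 13 cells. T-ALL#2 was thus lowest in Ccnd3 and highest in Ccnd1. E2f2, a member of the E2F family that is active in DP blasts, stood at 249, 65.0 and 35.3 CPM, while E2f1 stood at 40.9, 39.8 and 24.9 CPM. Cdkn2a, which encodes the inhibitor p16 and the p53 activator p19Arf, was the gene of this list higher in both, at 1.05, 11.2 and 19.0 CPM from 7, 170 and 42 UMIs.

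Some replication-dependent histone genes were lower. Of 47 tested genes, 18 were lower in T-ALL#1 and 26 were lower in T-ALL#2, with medians of -0.87 and -1.10, and 0 were higher, beside 5.77% and 21.4% of all genes lower. With the TMM factors 11 and 14 were lower, and 1 was higher in T-ALL#2. With thinned cells 26 and 3 of 40 tested genes were lower, and the T-ALL#2 median turned to 1.10, beside 0.68 over all genes. Hist1h2ap ranked first among genes lower in both leukemias when ordered by the smaller of their folds, at 9055, 325 and 142 CPM (27.9-fold and 63.8-fold lower). Histone genes come in near-identical copies and their main transcripts lack a poly(A) tail, so levels of single histone genes by poly(A) capture are uncertain. Slbp, whose product binds the end of histone transcripts, stood at 556, 254 and 184 CPM.

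In summed levels, Myc and part of its ribosome biogenesis program were higher in the leukemias. Of 8 tested blast growth genes, 3 were higher in T-ALL#1 and 3 were higher in T-ALL#2, beside 4.84% and 5% of all genes. In T-ALL#2 1 was lower, beside 21.4% of all genes. With the TMM factors 4 and 4 blast growth genes were higher, and with thinned cells 2 and 0 of 7 tested. Myc, the growth regulator, stood at 12.8 CPM in WT (85 UMIs), 68.7 CPM in T-ALL#1 (1047 UMIs) and 47.0 CPM in T-ALL#2 (104 UMIs), with ratios of 5.38 (4.31 to 6.79) and 3.68 (2.74 to 4.96). After thinning, Myc was found in 1.15% of the WT cells (0.423 to 2.48%) and 11.2% of those of T-ALL#1 (9.27 to 13.3%). In T-ALL#2 the thinned share was 3.77% (1.04 to 9.38%), with an interval that overlapped that of WT. Mycn had 14 UMIs in WT and 0 in both leukemias. Of 18 Myc-type ribosome biogenesis genes, 6 were higher in T-ALL#1 and 6 were higher in T-ALL#2, 4 of them in both (Gnl3, Srm, Cad and Mybbp1a), and none was lower, beside 4.84% and 5% of all genes higher. The medians were 0.80 and 0.84. With the TMM factors 9 and 10 of these genes were higher, and with thinned cells 7 and 3. Srm, which makes spermidine, stood at 48.0, 127 and 138 CPM, and Npm1, a nucleolar chaperone, at 1415, 2535 and 3421 CPM. Both leukemias lay above WT in the summed levels of Myc, Srm and Npm1, though Npm1 was within 2-fold in T-ALL#1.

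Of 12 tested glycolysis genes, 5 were higher in T-ALL#1 and 3 were higher in T-ALL#2, beside 4.84% and 5% of all genes, with medians of 0.91 and 0.62, and Hk1 was lower in T-ALL#2. With the TMM factors 7 and 6 were higher, and with thinned cells 4 and 2. Tpi1 stood at 169, 506 and 406 CPM, and Pkm, the last kinase of the pathway, at 404, 1065 and 975 CPM. Aldoa, at 139, 469 and 396 CPM, is held by more than 1 identifier in the matrices and was read under that with most UMIs. Tfrc, the transferrin receptor that brings iron into dividing cells, stood at 52.3, 161 and 95.4 CPM, past the 2-fold rule in T-ALL#1 alone. Proteasome genes served as a contrast, with 0 of 38 past the rule in either leukemia and medians of 0.13 and 0.01, and 1 and 2 of them were higher with the TMM factors.

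Tal1 (chr4:115056426-115071755), a transgene of this line, had 0 UMIs in cycling DP cells of WT, 666 UMIs in T-ALL#1 (43.7 CPM) and 551 UMIs in T-ALL#2 (249 CPM). With the WT count set to 3 UMIs its ratio was 96.9 in T-ALL#1 (interval from 78.6) and 552 in T-ALL#2 (interval from 448). It was found in 40.6% and 95.3% of the cells. Empty droplets of T-ALL#2 held it at 566 CPM, more than its cells did. Lmo2, the other transgene, had 3, 1 and 0 UMIs, and whether the transgene transcript can be counted under this gene is not given in the sources used here.

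The E protein genes Tcf3 and Tcf12 stayed within 2-fold of WT, Tcf12 at 328, 464 and 413 CPM. Id1, which encodes an inhibitor of E protein binding, stood at 1.65, 40.8 and 111 CPM, with ratios of 24.6 (13.7 to 49.6) and 67.2 (36.9 to 136). Id3, the Id gene induced by receptor signals, stood at 181, 73.1 and 148 CPM. Id2 stood at 30.7, 84.1 and 47.0 CPM. The Id genes therefore did not share a direction.

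Most genes of the T-cell receptor complex stood within 2-fold of WT. Of 11 listed genes, 1 was lower in T-ALL#1 and 4 were lower in T-ALL#2, beside 5.77% and 21.4% of all genes, and none was higher. With the TMM factors 1 was lower in each. Cd3d stood at 672, 1015 and 853 CPM and Cd3e at 456, 379 and 317 CPM. Trbc1, a constant region of the beta chain, stood at 3525 CPM in WT, 944 CPM in T-ALL#1 and 2.71 CPM (6 UMIs) in T-ALL#2, while its near-identical copy Trbc2 stood at 5217, 4507 and 3705 CPM. Reads that fit both copies make the split between them uncertain. Trdc, the constant region of the delta chain, stood at 442 CPM in WT and 105 CPM in T-ALL#2, and had 0 UMIs in T-ALL#1. With that count set to 3 UMIs it was 2243-fold lower than in WT (interval of the ratio up to 0.000548).

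The variable segments of the beta chain differed by library. Of 35 listed Trbv segments, 14 were seen in cycling DP cells of WT, 5 in those of T-ALL#1 and 4 in those of T-ALL#2. The leading segment in WT was Trbv2, with 186 of 498 UMIs (37.3%, interval 33.1 to 41.8%). In T-ALL#1, Trbv2 took 1049 of 1612 UMIs (65.1%, 62.7 to 67.4%) and Trbv19 took 547 (33.9%). In T-ALL#2, Trbv26 led with 22 of 46 UMIs (47.8%, 32.9 to 63.0%), followed by Trbv5 with 17. The low-cycling DP cells were led by the same segments, with 34.4%, 72.7% and 55.9% of their Trbv UMIs.

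Survival and post-selection genes gave mixed values. Bcl2, which blocks apoptosis, stood at 54.4, 14.9 and 8.59 CPM, and Bcl2l1, whose Bcl-xL product protects DP cells, at 87.7, 37.6 and 13.1 CPM. Bax, which promotes apoptosis, was higher in both, at 92.5, 237 and 244 CPM. Of 8 tested survival genes, 2 were lower and 1 higher in both leukemias, beside 4.93% and 2.99% of all genes. T-ALL#2 had 3 lower and 2 higher in all, beside 21.4% and 5% of all genes. Of 9 tested post-selection genes, Cd69 and Bcl2 were lower in both, with Cd69 at 23.8, 5.51 and 11.8 CPM, beside 4.93% of all genes lower in both. The medians were -0.15 and 0.59. In all, 2 were lower in T-ALL#1 and 3 were lower in T-ALL#2, beside 5.77% and 21.4% of all genes. None was higher, but in T-ALL#2 4 were higher with the TMM factors and 5 with 2 UMIs of each coreceptor. Of 12 quiescence genes, Trib2, a Notch-induced pseudokinase, was higher in both at 18.6, 93.6 and 46.6 CPM. Txnip was lower in both at 93.5, 41.2 and 25.8 CPM. The shares of all genes were 2.99% higher and 4.93% lower in both.

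By the naming rule, the 10 genes with the largest ratios to WT in both leukemias (mean of at least 50 CPM) were Gm266, Tal1, Hes1, Wdr25, Il2ra, Iltifb, Id1, Dtx1, Prmt7 and Plac8. Gm266 (chr12:111484609-111485823), a predicted gene, had 0, 4890 and 506 UMIs. With the WT count set to 3 UMIs its ratio was 711 in T-ALL#1 (interval from 578) and 507 in T-ALL#2 (interval from 411). Wdr25 (chr12:108893631-109028452) stood at 1.35, 129 and 99.9 CPM. Iltifb, a near copy of the interleukin-22 gene whose reads may be shared with it, had 0, 2331 and 47 UMIs. Its ratios with the same setting were 339 (interval from 276) and 47.1 (interval from 36.8). Prmt7, an arginine methyltransferase, stood at 31.3, 255 and 307 CPM.

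The 10 with the largest differences in the other direction were Hist1h2ap, Ccr9, Ifi27l2a, S100a10, Ctsl, Nebl, Anxa2, Cd52, Serinc3 and Lsp1. S100a10 and Anxa2, whose proteins form a complex at the membrane, stood at 156, 10.9 and 0.452 CPM and at 588, 11.0 and 82.8 CPM. Ctsl, a lysosomal protease, stood at 1208, 90.8 and 85.0 CPM. Cd52, a surface glycoprotein of lymphocytes, stood at 442, 64.4 and 76.4 CPM. The leukemias differed most from each other, by ratio, in Trbc1, S100a10, Ly6d, Iltifb and Nebl (higher in T-ALL#1) and in Trdc, Gdpd3, Tnnt1, Ybx3 and H1fx (higher in T-ALL#2). Ly6d, a surface protein, stood at 252 CPM (T-ALL#1) and 12.2 CPM (T-ALL#2), with WT at 212 CPM. Tnnt1, a troponin gene, stood at 13.6 and 242 CPM, with WT at 11.4 CPM.

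Within WT, cycling DP cells were set beside the 1679 DP cells under the threshold, which had a median of 2698 UMIs. The gate genes fixed this contrast, so it is given as a description. Of 7940 genes with a mean of at least 10 CPM, 792 (9.97%) were higher and 1269 (16.0%) lower in the cycling cells. All 26 replication genes and 27 of 28 mitosis genes were higher. Outside these lists and the histones, the largest ratios were those of Sgo2a, Esco2, E2f8, Sgo1, Mxd3, Neil3, Knl1, Pbk, Rad51ap1 and Cdca8, most of which act in chromosome cohesion, the kinetochore, repair or the E2F network. Sgo2a, which protects centromeric cohesion, stood at 121 CPM in cycling and 0.717 CPM in low-cycling cells.

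In summed levels, genes of resting and more mature cells were lower in cycling WT cells, but most of these calls were lost when cells were weighted equally or thinned. Rag1 stood at 403 CPM in cycling and 1293 CPM in low-cycling cells, Ccr9 at 414 and 1463 CPM, and Satb1 at 1490 and 3212 CPM. All 12 post-selection genes and 11 of 12 quiescence genes were lower, with Bcl2 at 54.4 and 211 CPM and Btg1, an antiproliferative gene, at 322 and 1084 CPM. Of the DP program 10 of 16 genes were lower, while Dntt stood at 1401 CPM in cycling and 996 CPM in low-cycling cells and Ptcra at 64.8 and 16.3 CPM. With all cells weighted equally 8 of 11 tested post-selection genes were lower, and 0 of 12 quiescence and 0 of 16 DP program genes. With cells thinned to 2000 UMIs the counts were 2 of 10, 0 of 12 and 0 of 16. The genes named for the largest difference in this direction were Hba-a1, Hbb-bs, Samhd1, Gm15340, Il7r, Gimap8, Gimap6, Tes, Gimap4 and Ccnd2, of which Hba-a1 and Hbb-bs are globin genes of red cells. The 989 UMIs of Hba-a1 and 975 of Hbb-bs in low-cycling cells came from only 5 and 4 of the 1679 cells. These 2 globin values therefore do not describe low-cycling DP cells at large. Trdc stood at 442 CPM in cycling and 55.6 CPM in low-cycling WT cells.

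In summed levels, the leukemias kept part of this contrast. Rag1 stood at 146 CPM in cycling and 453 CPM in low-cycling DP cells of T-ALL#1, a ratio of 0.322 beside 0.312 in WT, but at 48.8 and 54.2 CPM in T-ALL#2, a ratio of 0.901. After thinning and gating again, Rag1 was found in 71.9% of cycling and 81.5% of low-cycling WT cells. The shares were 56.5% and 60.2% in T-ALL#1, and 23.1% and 13.7% in T-ALL#2 (13 and 51 cells). Dntt was lower in cycling cells of T-ALL#1 (773 and 1013 CPM), where WT had the opposite order. Ptcra was 3.97-fold higher in cycling cells of WT and 4.23-fold higher in those of T-ALL#2, whereas in T-ALL#1 it stood at 170 CPM in cycling and 448 CPM in low-cycling cells. In thinned and regated cells, Ptcra was found in 4.07% of cycling and 3.97% of low-cycling WT cells. The thinned shares were 44.0% and 53.3% in T-ALL#1, and 0% and 0% in T-ALL#2. Hes1 stood at 298 CPM and Il2ra at 500 CPM in low-cycling cells of T-ALL#1, above their levels in cycling cells. In low-cycling DP cells the ratios to WT were 64.0 (T-ALL#1) and 27.2 (T-ALL#2) for Hes1, so its high level was not particular to cycling cells. Mitosis genes differed from WT in the cycling cells, as given above, and in low-cycling cells their median log2 ratio was 0.20 (T-ALL#1) and -0.21 (T-ALL#2). The threshold itself leaves cells with many cycling UMIs out of the low-cycling group. These medians therefore cannot tell whether the mitosis difference is particular to cycling cells.

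**Figure D5:**
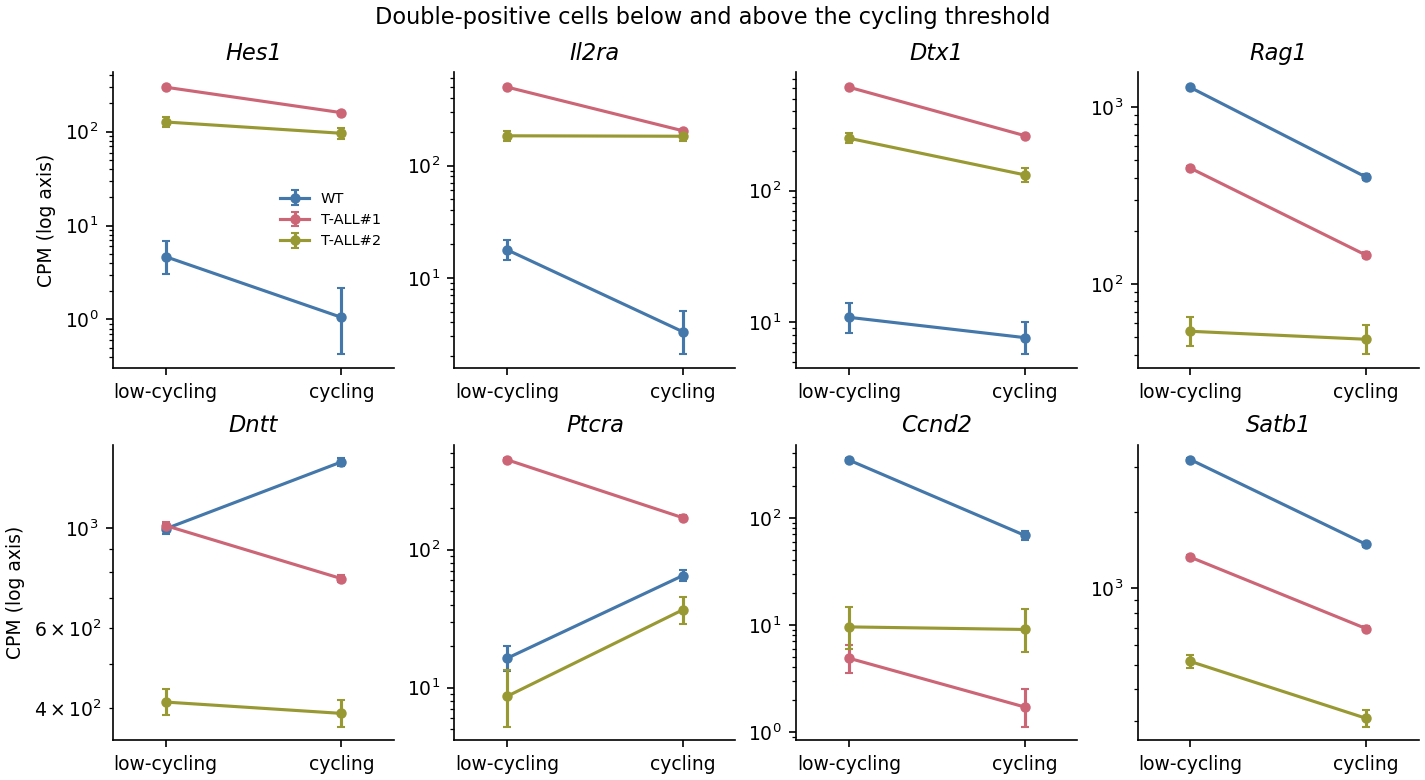
Summed level (y axis, CPM on a log scale) of 8 genes in low-cycling and cycling DP cells of each library, with exact 95% Poisson intervals and lines joining the values of a library. Hes1, Il2ra and Dtx1 of both leukemias stay above WT in either state, and Ptcra is lower in cycling than low-cycling cells of T-ALL#1 (448 and 170 CPM) but higher in cycling cells of WT (16.3 and 64.8 CPM) and T-ALL#2 (8.65 and 36.6 CPM). After thinning, 4.07% of cycling and 3.97% of low-cycling WT cells held Ptcra, and 0% of those of T-ALL#2 (13 and 51 cells).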

How the data were processed

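Single-cell RNA of mouse thymi was captured by 10x Genomics 3′ chemistry. The deposited matrices hold raw UMI counts per gene and barcode, which the authors made with Cell Ranger 3.0.2 (WT, T-ALL#1) and 4 (T-ALL#2) against mm10, per the file headers and labels. The matrix of T-ALL#2 holds all barcodes, so cells there needed at least 3416 UMIs. Kept cells had over 500 genes and under 10% mitochondrial UMIs, with a median of 3800.5 UMIs in WT, 8742 in T-ALL#1 and 17581 in T-ALL#2. No doublet caller was run. UMIs were summed over gated cells per library and scaled to CPM. Ratios carry exact conditional binomial intervals, levels exact Poisson intervals and shares Clopper-Pearson intervals, computed with scipy 1.17.1 and tested on simulated data. A count of 0 was set to 3 UMIs for a ratio. TMM factors came from edgeR 4.0.16. Gene positions are those of GENCODE M21 (GRCm38). Levels of different genes are not scaled for length, since 3′ tags are counted.

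Named genes are members of fixed lists and, at a mean of at least 50 CPM, the 10 called genes per direction with the largest ratios in both leukemias and within WT and the 5 per direction between leukemias, without gate genes, receptor segments, Xist and Y-linked genes. Replication, mitosis and histone genes were also left out of the WT ranking. Ribosomal, histone and proteasome groups were taken by symbol. Members, lists and rules were chosen with earlier results of these data known. The alternatives tried concerned gating, thinning, scaling and filtering. The preleukemic library enters no comparison.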

Additional observations from a re-analysis of the deposited data

Results flagged for a closer look

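The preleukemic library, which enters none of the comparisons, held Tal1 in its cycling DP cells at 333 CPM (461 UMIs summed over 85 cells, interval 303 to 364 CPM), where WT held 0 UMIs. The same gate passed 85 of 219 DP cells there. In those cells Hes1 stood at 2.89 CPM (4 UMIs) and Il2ra at 8.66 CPM (12 UMIs), Rag1 at 193 CPM and Notch1 at 123 CPM.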

How the results depend on the processing

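The main limits are the lone WT library and depth, which differed between libraries and set which cells could pass a gate met by single UMIs. The number of genes higher in both leukemias was 384 with TMM factors, 94 with cells thinned to 2000 UMIs, 482 with no filter on level and 57 at a mean of at least 50 CPM. The number lower in both was 217, 67, 850 and 114 under these settings, and 704 when all cells were weighted equally. Leaving out 1 leukemia gave 357 to 369 higher and 426 to 1578 lower, the latter without T-ALL#1. For T-ALL#1, genes higher numbered 997 with no filter and 96 at 50 CPM, and genes lower 807 with cells weighted equally, 736 thinned, 1532 with no filter and 131 at 50 CPM. For T-ALL#2, genes higher numbered 757 with TMM factors, 243 thinned, 822 with no filter and 123 at 50 CPM, and genes lower 774, 150, 2466 and 471. In WT, genes higher in cycling than in low-cycling cells numbered 523 with cells weighted equally, 458 thinned and 370 at 50 CPM, and genes lower 244, 195 and 434, with 655 under TMM factors and 2273 with no filter. The filters change how many genes are tested, and thinning how many cells; otherwise the cause was not tested.

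The cycling share of DP cells was 24.5%, 30.7% and 20.3% in WT, T-ALL#1 and T-ALL#2 after thinning and 16.7%, 21.3% and 19.4% at a threshold of 10 per 10000. It was 25.8% in WT with an upper limit on genes, 34.3% in T-ALL#1 with 2 UMIs of each coreceptor, and 18.3% in WT and 34.5% in T-ALL#1 with 2 cycling UMIs. Requiring 2 cycling UMIs for the counts of genes was chosen after seeing the data and kept each count within 1.5 times. Of 168 ratios of named genes past the 2-fold rule (76 of which could be computed after thinning and 150 to 168 under the other settings), 4 changed direction under a setting: Bbc3 of T-ALL#2 with cells weighted equally (0.763), Cd28 (1.16) and Tpx2 (1.01) of T-ALL#2 after thinning, and Ube2c of T-ALL#2 in cells that do not lean to mitosis (1.19). The cause was not tested. No paired analysis was possible because the labels pair no mice and WT is 1 library.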
